A study of Mus musculus with 4 samples.

Results

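The multimerin and emilin genes examined here are Mmrn1, Mmrn2, Emilin1 and Emilin2. They were chosen by name, and all 4 were found among the 24421 gene rows of the count table. RNA came from lymphatic endothelial cells, the lining cells of lymphatic vessels, of mouse lungs at postnatal day 0. Sorting kept cells with CD31, an endothelial surface protein, and GFP but without the leukocyte protein CD45, and 3 to 5 mice were pooled per group. Animals of both groups carried Prox1-CreER, a Cre recombinase that acts after tamoxifen in cells that use the Prox1 gene, and the Rosa26-mTmG reporter, which turns green where Cre has acted. Jun-Ctrl animals had the genotype Prox1-CreER;Junf/+;Rosa26-mTmG, so 1 of their Jun alleles could also be deleted, and Jun-cKO animals had Prox1-CreER;Junf/f;Rosa26-mTmG. Each group had 2 libraries (n = 2 for every mean below), called replicate 1 and replicate 2, the second being the one whose title says replicate. Cells of a group were mixed before RNA amplification, per the series' design text, so the p-values reflect the spread of these library pairs alone, and that spread may be technical.

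These 4 genes encode large secreted glycoproteins that share an EMI domain near the amino terminus, a long coiled-coil middle and a C1q-like domain at the carboxyl terminus, and that assemble into multimers in the extracellular matrix. Multimerins are made by endothelial cells, and multimerin 1 also by megakaryocytes and platelets. Emilins lie at the surface of elastic fibres. Multimerin 1 is a common marker of lymphatic endothelium, and emilin 1 is known for linking lymphatic endothelial cells to the matrix around them.

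Libraries held 6483514 to 16037416 counts, with replicate 2 the shallower in each group. Jun itself did not fall, standing at 452 ± 27.7 CPM (counts scaled to library size, with TMM factors between libraries; mean ± SD) in Jun-Ctrl and 499 ± 34.8 CPM in Jun-cKO. Its change on the log2 scale was 0.14 (SE 0.12, adjusted p = 0.354 by edgeR). Counts are per gene and the floxed part is not given in the sources used here, so RNA of a deleted allele could still be counted. This was not tested, and these counts do not show how far Jun was deleted. The group is therefore called Jun-cKO-labelled below, and each direction rests on that label. Of 12656 tested genes, 41.5% were called at an adjusted p under 0.05, 19.0% as higher and 22.5% as lower in Jun-cKO-labelled libraries. Of the lymphatic markers, Lyve1, Reln, Flt4 and Pdpn were abundant in every library, down to 635 CPM for Pdpn in Jun-Ctrl replicate 2. Prox1 was between 31.9 and 43.6 CPM, and Ccl21a had 0 counts throughout.

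The promoters of Mmrn1 and Emilin1 are shown because, as counted, Mmrn1 passed the test and Emilin1 did not. Mmrn1 is also the most abundant gene of the family here. After a correction for the GC content of transcripts both genes passed. Each run covers 250 bases before to 50 bases after a RefSeq transcript start (GRCm38.p6, plus strand, 5′ to 3′), at chr6:60944067-60944366 for Mmrn1 and at chr5:30913536-30913835 for Emilin1. Capitals mark GGAAG, the core letters read by Ets factors, searched on both strands.
Mmrn1: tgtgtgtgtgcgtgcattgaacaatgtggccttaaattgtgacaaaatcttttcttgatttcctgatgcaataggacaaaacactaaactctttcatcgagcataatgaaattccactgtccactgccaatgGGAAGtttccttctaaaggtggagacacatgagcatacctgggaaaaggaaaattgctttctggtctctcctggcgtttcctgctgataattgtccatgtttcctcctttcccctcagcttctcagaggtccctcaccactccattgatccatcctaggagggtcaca
Emilin1: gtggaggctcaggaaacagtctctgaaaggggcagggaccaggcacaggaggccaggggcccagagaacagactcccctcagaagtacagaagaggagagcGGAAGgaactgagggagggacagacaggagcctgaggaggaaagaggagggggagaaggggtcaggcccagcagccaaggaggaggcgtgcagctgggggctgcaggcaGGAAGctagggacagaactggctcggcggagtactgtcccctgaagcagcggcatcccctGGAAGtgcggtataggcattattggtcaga
The protein-coding transcripts of Mmrn1 in the GENCODE annotation start at 60944476 and 60944478, just after its window, and the most upstream start, 60924976, belongs to a transcript with a retained intron. That of Emilin1 starts at 30913402, before its window. No window at these other starts was searched. The Mmrn1 window held 1 such match and the Emilin1 window 3, and 71.4% of 32851 mouse promoter windows of this length held at least 1. The AP-1 letters TGANTCA and the related letters TGACGTCA, both of which Jun dimers can bind, were not in these windows or in either of the Emilin2 windows, on either strand. They occurred in 7.81% and 1.79% of all windows. Promoter sequences were matched for 3 of the 4 genes. The Mmrn1 window had a GC content of 44.3% and the Emilin1 window of 61.7%, against a median of 52.7% over all windows.

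Both multimerin genes rose in Jun-cKO-labelled libraries, Mmrn1 1.45-fold and Mmrn2 1.44-fold, or 1.28-fold and 1.61-fold after a correction for the GC content of transcripts. Neither emilin gene passed the test as counted, with Emilin1 at 1.13-fold and Emilin2 at 0.661-fold of its Jun-Ctrl level. After the same correction Emilin1 passed, at 1.57-fold, and Emilin2 did not, at 0.815-fold. As counted, 2 of the 4 genes were called, both as higher, against 41.5% of all tested genes in either direction and 19.0% as higher. With 4 genes, that share is not read as particular to the family. The groups did not overlap for any of the 4, 3 with Jun-cKO-labelled libraries above and Emilin2 with them below, but 71.3% of all tested genes also do not overlap, 35.4% with Jun-cKO-labelled libraries above and 35.9% with them below.

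Mmrn1 encodes multimerin 1, a soluble polymer that is stored in platelet granules and endothelial storage bodies and binds coagulation factor V. It is a protein-coding gene on the plus strand of chromosome 6 (60924976 to 60989378, GRCm38), with 8 exons in its longest annotated transcript. Its level was 2606 and 2145 CPM in Jun-Ctrl replicates 1 and 2, and 3469 and 3421 CPM in Jun-cKO-labelled replicates 1 and 2. Both Jun-cKO-labelled libraries lay above both Jun-Ctrl libraries, and the wider gap within a group was the one between the Jun-Ctrl libraries. The group means were 2376 ± 326 and 3445 ± 34.1 CPM (mean ± SD). On the log2 scale the change was 0.54 (SE 0.14), with an adjusted p of 0.0014 by edgeR and a 95% interval of the fold from 1.198 to 1.75. On the signed log2 scale, 88.4% of tested genes had a lower value, and these include the genes that fell. Without Jun-Ctrl replicate 2, the lower of the controls, the call ended, at a log2 fold change of 0.38 and an adjusted p of 0.114. After a correction for GC content the log2 fold change was 0.35, a call that passed (adjusted p = 0.029).

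Mmrn1 was among the most abundant transcripts of these cells. It took 0.216% to 0.340% of all counts. Per kilobase of the gene length in the deposited table, it ranked 132 and 176 among the 12656 tested genes in the Jun-Ctrl libraries and 114 and 116 in the Jun-cKO-labelled ones. Mmrn2 ranked between 1024 and 1510 over the 4 libraries on the same scale, Emilin1 between 8053 and 8609 and Emilin2 between 9548 and 10343.

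Mmrn2 encodes multimerin 2, a protein of the endothelial matrix that binds the endothelial surface lectins CLEC14A and CD93 and can hold the growth factor VEGF-A. It lies on the plus strand of chromosome 14 (34375465 to 34404287, GRCm38), with 7 exons. Its level was 230 and 216 CPM in Jun-Ctrl replicates 1 and 2, and 350 and 294 CPM in Jun-cKO-labelled replicates 1 and 2. The groups did not overlap, and here the wider gap was between Jun-cKO-labelled libraries. The means were 223 ± 10.4 and 322 ± 39.5 CPM, and the log2 change was 0.53 (SE 0.12, edgeR's adjusted p = 0.000306), with a 95% interval of the fold from 1.22 to 1.70. The Mmrn2 call passed in all 12 alternative settings run for it, at 1.32-fold to 1.61-fold.

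Emilin1 encodes emilin 1, which binds integrins alpha4 beta1 and alpha9 beta1 through its C1q-like domain and restrains the processing of the TGF-beta precursor. It lies on the plus strand of chromosome 5 (30913402 to 30921277, GRCm38), with 8 exons. It was counted at 10.8 and 11.02 CPM in Jun-Ctrl and at 12.5 and 12.1 CPM in Jun-cKO-labelled libraries, from 178, 72, 191 and 82 counts. The 4 values lay close together, and the exact Poisson 95% interval of each library, which covers counting error only, overlapped those of the other libraries. For example, it ran from 9.27 to 12.5 CPM in Jun-Ctrl replicate 1 and from 10.8 to 14.4 CPM in Jun-cKO-labelled replicate 1. The log2 change was 0.18 (SE 0.19, edgeR's adjusted p = 0.473), and the 95% interval of the fold, from 0.866 to 1.49, leaves room for no change as well as for a rise of the size seen in the multimerins. After GC correction Emilin1 passed, at a log2 fold change of 0.65 (adjusted p = 0.00567 by edgeR, against a range of 0.00567 to 0.695 over 12 alternatives).

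Emilin2 encodes emilin 2, a matrix protein that has been described as a ligand of death receptors and as an antagonist of Wnt1. In GRCm38 it occupies 71252172 to 71311978 of chromosome 17, minus strand, with 8 exons in its longest transcript. The predicted non-coding gene Gm26561 overlaps it on the opposite strand, with 0 shared exon bases. Emilin2 was the rarest member, at 6.43 and 8.11 CPM in Jun-Ctrl and 4.91 and 4.28 CPM in Jun-cKO-labelled libraries, from 106, 53, 75 and 29 counts. Both Jun-cKO-labelled values were below both controls, while the Poisson 95% interval of Jun-cKO-labelled replicate 1, from 3.87 to 6.16 CPM, overlapped that of Jun-Ctrl replicate 1, from 5.26 to 7.77 CPM. The log2 change was -0.60 (SE 0.25, edgeR's adjusted p = 0.0533), which missed the threshold. In 4 of 12 alternatives it passed, and the adjusted p ranged from 0.0341 to 0.349. After GC correction the log2 fold change was -0.30 (adjusted p = 0.349).

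**Figure D1:**
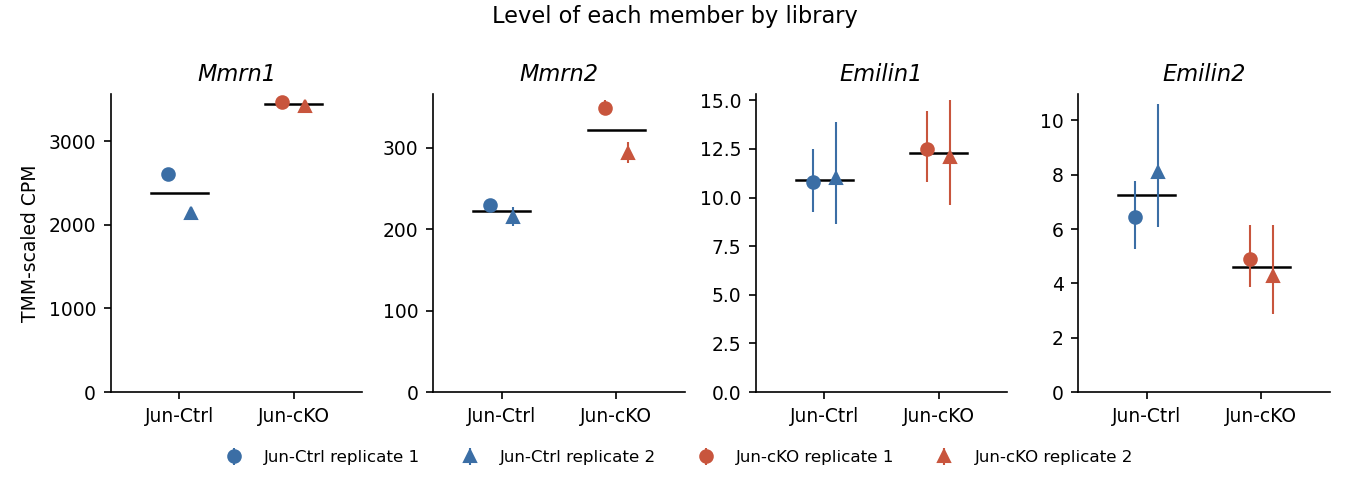
Level of Mmrn1, Mmrn2, Emilin1 and Emilin2 in each library, in TMM-scaled CPM on axes that start at 0 and differ between genes; circles are replicate 1, triangles replicate 2, black lines group means and bars exact Poisson 95% intervals of the count. Mmrn1 is at 2145 to 2606 CPM in Jun-Ctrl and 3421 to 3469 CPM in Jun-cKO, while the intervals of Emilin1 overlap between the groups.

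The family spanned a wide range of levels. Scaled to CPM per kilobase, the means in Jun-Ctrl were 512 ± 70.4 for Mmrn1, 56.7 ± 2.63 for Mmrn2, 3.15 ± 0.0451 for Emilin1 and 1.86 ± 0.304 for Emilin2. In Jun-cKO-labelled libraries they were 743 ± 7.35, 81.7 ± 10.04, 3.55 ± 0.0837 and 1.18 ± 0.115. The order was the same in every library, and each neighbouring pair differed by more than the spread between libraries of a group. Mmrn1 was 8.42 to 9.89 times as high as Mmrn2 per kilobase, with the 2 groups overlapping. Mmrn2 was 17.2 and 18.8 times as high as Emilin1 in Jun-Ctrl and 24.6 and 21.4 times in Jun-cKO-labelled libraries. Emilin1 was 1.90 and 1.53 times as high as Emilin2 in Jun-Ctrl and 2.87 and 3.19 times in Jun-cKO-labelled libraries. These scaled levels assume even coverage along a transcript, which was not examined in the amplified RNA. Differences in fold change between the 4 genes were not tested.

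**Figure D2:**
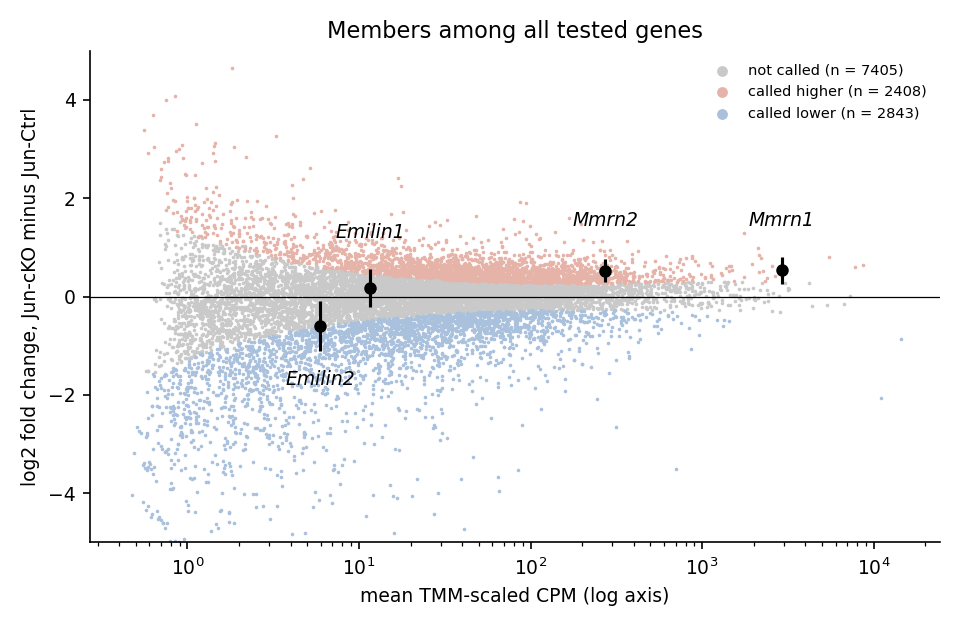
Log2 fold change of every tested gene (Jun-cKO minus Jun-Ctrl) against its mean TMM-scaled CPM on a log axis; black points with 95% intervals are the 4 family genes, and 82 genes lie beyond the limits of the vertical axis. Mmrn1 and Mmrn2 sit near 0.54 and 0.53 at high levels, and Emilin1 and Emilin2 at low levels where the calls need larger changes.

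GC content of the transcripts differed within the family, and fold changes in this comparison fell with GC content. The longest transcript of Mmrn1 had a GC content of 42.3%, lower than most tested genes, that of Mmrn2 53.6%, of Emilin2 56.4% and of Emilin1 61.1%, against a median of 49.7% over tested genes. In the decile of tested genes by GC content that holds Mmrn1 the median log2 fold change was 0.20, in that of Mmrn2 it was -0.19, in that of Emilin2 -0.29 and in that of Emilin1 -0.44. The corrected log2 fold changes of 0.35 for Mmrn1, 0.69 for Mmrn2, 0.65 for Emilin1 and -0.30 for Emilin2 stand beside these values. With the correction, the calls in the family were 3 higher and 0 lower, against 2327 and 2409 of 12188 tested genes.

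**Figure D3:**
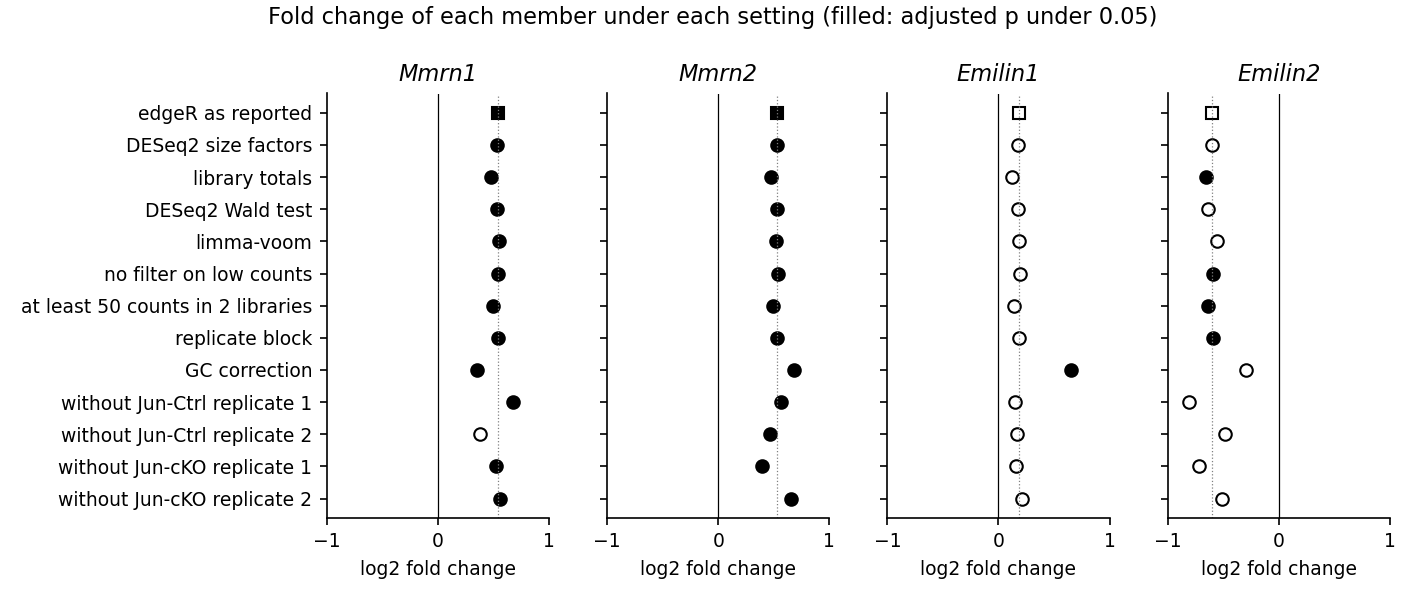
Log2 fold change (Jun-cKO minus Jun-Ctrl) of each family gene in the reported edgeR fit (square) and in 12 alternatives (circles), filled where the adjusted p is under 0.05; dotted lines mark the reported value. Mmrn2 is filled in every row, Mmrn1 is open without Jun-Ctrl replicate 2, and Emilin1 moves from 0.18 to 0.65 with the GC correction.

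Lymphatic markers did not move as one. Of 9 tested lymphatic endothelial markers, Lyve1 (log2 fold change 0.61) and Reln (0.78) rose, Flt4 fell by 0.60 on the log2 scale and 6 did not pass, among them Prox1 (-0.31), Pdpn (0.15) and Pecam1 (0.22). The called shares, 22.2% higher and 11.1% lower, stand beside 19.0% and 22.5% of all tested genes. The Flt4 call ended with GC correction (adjusted p = 0.0901). The list median was 0.22, against 0.01 over all tested genes. The summed level of the list was 11324 to 12131 CPM in Jun-Ctrl libraries and 15623 to 16210 CPM in Jun-cKO-labelled libraries. Set against that sum, Mmrn1 stood at 21.5% and 18.9% in Jun-Ctrl, and at 22.2% and 21.1% in those labelled Jun-cKO, so the groups overlapped. Mmrn2 stood at 1.90% in both Jun-Ctrl libraries and at 2.24% and 1.81% in the others, also overlapping. Lyve1 makes up much of that sum. Against the other markers of the list, Mmrn1 stood at 45.5% and 40.1% in Jun-Ctrl, and at 49.7% and 57.5% in those labelled Jun-cKO, and Mmrn2 at 4.02% and 4.03% against 5.01% and 4.94%, without overlap. Against the summed CPM of the junction genes Pecam1 and Cdh5, Mmrn1 stood at 249% and 201% in Jun-Ctrl and at 275% in both others. Mmrn2 stood at 22.0% and 20.3% against 27.7% and 23.6%, again without overlap. In plain CPM 71.3% of all tested genes do not overlap, and for such ratios that share was not computed. In sorted bulk cells, fewer cells of a type and less RNA per cell cannot be told apart.

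Transcripts of platelets, which also make multimerin 1, were few. Of 10 platelet and megakaryocyte markers 4 were tested. Gp1bb and Pf4 fell, and Itga2b and Gp1ba did not pass, at log2 fold changes of 0.27 and -0.39. Of all tested genes, 22.5% were called lower and 19.0% higher. Ppbp and Gp6 had 0 counts in every library. The 10 genes summed to 9.46 to 14.4 CPM in Jun-Ctrl and to 6.05 to 7.80 CPM in Jun-cKO-labelled libraries, but without Gp1bb the sums overlapped, at 6.06 to 9.33 and 5.17 to 6.68 CPM. Their part in the Mmrn1 values was not tested. The Pf4 call ended with DESeq2, limma-voom and GC correction (adjusted p = 0.187, 0.0932 and 0.0635), when Jun-Ctrl replicate 2 was left out (0.543) and on leaving out Jun-cKO-labelled replicate 1 (0.322).

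Among markers of other cell types, the smooth muscle, leukocyte, epithelial and mesothelial lists had lower summed levels in Jun-cKO-labelled libraries. The direction of the blood endothelial sums rested on 1 gene, and the order of the fibroblast sums depended on which gene was left out. Beside the counts that follow, 19.0% of all tested genes were called higher and 22.5% lower. Smooth muscle and pericyte markers summed to 93.9 to 95.01 CPM in Jun-Ctrl and 18.3 to 18.7 CPM in the others. Of 8 tested, 6 were lower and 0 higher, led by Acta2, Actg2, Tagln and Notch3, while Pdgfrb and Cnn1 did not pass. Of 7 tested fibroblast markers 4 fell and 1 rose. Col1a1, Col1a2 and Col3a1 fell, Postn rose, and Dcn and Pdgfra did not pass. The fibroblast sums overlapped, at 406 to 439 and 419 to 488 CPM. Without Postn, a matrix protein gene, they were 257 to 260 and 90.4 to 97.3 CPM. Without Col1a1, Col1a2 or Col3a1 the Jun-cKO-labelled sums lay above instead, at 275 to 310 and 376 to 451 CPM without Col1a2. Leaving genes out of these sums was chosen after seeing the data. Leukocyte markers summed to 485 to 499 CPM and 233 to 250 CPM, with 7 of 9 tested lower and 1 higher, led by S100a9, Lyz2, Cd68 and S100a8, while Adgre1 did not pass. Epithelial markers fell in 10 of 10 cases, led by Sftpc, Sftpb, Sftpa1 and Krt19, from 1593 to 1691 CPM in sum to 175 to 179 CPM. Of 2 tested mesothelial markers Msln fell and Wt1 did not pass, and that list summed to 30.9 to 36.1 and 2.21 to 2.69 CPM. Of 8 tested blood endothelial markers 2 rose and 3 fell. Plvap, Cd34 and Car4 fell, Gpihbp1 and Vwf rose, and Emcn and Flt1 did not pass. Their sums were 618 to 659 and 500 to 516 CPM, a direction that rests on Plvap, a gene of blood vessel endothelium: without it the other 9 markers summed to 292 to 324 CPM in Jun-Ctrl and 333 to 366 CPM in Jun-cKO-labelled libraries. The part of these transcripts in the values of Emilin1 and Emilin2 was not tested.

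The known partners of multimerin 2 moved in different directions. Cd93, a surface lectin of endothelium, rose with Mmrn2, from 159 to 210 CPM (log2 fold change 0.40, adjusted p = 0.0036 by edgeR). Clec14a, the other endothelial lectin, fell from 23.4 to 13.5 CPM (log2 fold change -0.85, adjusted p = 0.000257). Cd248, a lectin of pericytes and fibroblasts, had 40 counts in Jun-Ctrl and 2 in Jun-cKO-labelled libraries, a ratio of 19.1 with an exact 95% counting interval from 4.96 to 163. Vegfa and its receptor gene Kdr did not pass, at -0.20 and 0.20. The Cd93 call ended without Jun-Ctrl replicate 1 (adjusted p = 0.0831) and the Clec14a call without Jun-cKO-labelled replicate 1 (0.0536).

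Among partners of multimerin 1, the integrin subunit gene Itgav rose from 74.3 to 102 CPM (log2 fold change 0.45, adjusted p = 0.00184 by edgeR), a call that ended without Jun-Ctrl replicate 2 (0.0731). Vwf, the von Willebrand factor gene, was at 3.203 and 4.95 CPM and passed at 0.79 (adjusted p = 0.039), but not with library totals (0.0568), DESeq2 (0.272), or without Jun-Ctrl replicate 1 (0.72) or Jun-cKO-labelled replicate 1 (0.161). The integrin genes Itga2b, one of the platelet markers above, and Itgb3 did not pass, at 0.27 and -0.15. Itgb3 was at 151 CPM in Jun-Ctrl and 136 CPM in Jun-cKO-labelled libraries, against 2.76 and 2.83 CPM for Itga2b. The factor V gene F5 had 2 to 11 counts per library and was not tested.

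Of 5 partners of emilin 1, 4 fell. Tgfb1, whose precursor emilin 1 binds, fell from 39.9 to 8.66 CPM (log2 fold change -2.17, adjusted p = 7.62e-14 by edgeR). Leukocytes also make Tgfb1, and 7 of 9 tested leukocyte markers fell too, with a list median of -1.12. Their part in the Tgfb1 value was not tested. Furin, the protease gene for that precursor, was at -0.37 (adjusted p = 0.0476), a call that ended in 6 of 12 alternatives, among them without Jun-Ctrl replicate 1 or 2 (0.118 or 0.157) and on leaving out Jun-cKO-labelled replicate 2 (0.193). The integrin alpha genes Itga4 and Itga9 fell by 1.31 and 0.41 on the log2 scale (adjusted p = 0.00317 and 0.0037), and their shared beta subunit gene Itgb1 did not pass, at 0.28 (adjusted p = 0.0743). The Itga4 call ended with DESeq2 (0.0628) and without Jun-Ctrl replicate 1 (0.0562) or Jun-cKO-labelled replicate 1 (0.134), and the Itga9 call without Jun-Ctrl replicate 2 (0.0922). For emilin 2, the death receptor gene Tnfrsf10b rose at 0.45 (adjusted p = 0.0244), a call that ended in 5 of 12 alternatives, among them without Jun-Ctrl replicate 1 or 2 (0.129 or 0.145) and on leaving out Jun-cKO-labelled replicate 1 (0.249). The Wnt co-receptor gene Lrp6 did not pass, at -0.28, and Wnt1 had 0 counts. Over the 16 tested partners, 4 rose and 6 fell, against 19.0% and 22.5% of all tested genes, with a median log2 fold change of -0.17 against 0.01. With Jun-Ctrl replicate 1 left out there was 1 call of a higher gene, and 2 such calls were made without Jun-Ctrl replicate 2, with DESeq2 and with library totals.

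Among genes of the elastic fibres that emilins accompany, 9 of 21 tested fell (42.9%) and 1 rose (4.76%), against 22.5% and 19.0% of all tested genes. After GC correction the list had 3 higher and 5 lower. As counted, it had a median log2 fold change of -0.36 against 0.01 over all tested genes. The crosslinking enzyme genes Loxl1 and Lox fell 19.0-fold and 2.71-fold. Loxl1 had 141 counts in Jun-Ctrl and 7 in Jun-cKO-labelled libraries, a ratio of 19.3 with an exact 95% counting interval from 9.11 to 48.8. The latent TGF-beta binding protein gene Ltbp4 fell 2.19-fold and the microfibril gene Mfap4 2.56-fold. Ltbp4 was at 506 CPM in Jun-Ctrl and 231 CPM in Jun-cKO-labelled libraries. Efemp1 had 27 counts in Jun-Ctrl and 0 in the others, 8.61-fold lower when 3 counts over the group are taken as the floor. The exact 95% counting interval of its ratio begins at 6.54. With Efemp1 set at the 8.61-fold value, the list median stayed at -0.36. Fbln5 and Fbn1, which help to assemble the fibres, did not pass, at 0.23 and 0.14. The member called higher, chosen after its value was seen, was Loxl3 (0.79), a call that ended with DESeq2 (0.149), without Jun-Ctrl replicate 1 or 2 (0.233 or 0.07) and on leaving out Jun-cKO-labelled replicate 2 (0.089). Without Jun-cKO-labelled replicate 1 or 2 the list had 2 or 3 higher. The smooth muscle sums above moved down beside this list, and their part in it was not tested.

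Relatives of the family by domain ranged from 0 counts to a level per kilobase above that of Mmrn2. Emid1, which also carries an EMI domain, was at 308 CPM in Jun-Ctrl and at 276 CPM in Jun-cKO-labelled libraries. As counted it had no call (log2 fold change -0.16, adjusted p = 0.296 by edgeR). After GC correction Emid1 was called higher, at 0.34 (adjusted p = 0.0114 by edgeR). Per kilobase it stood between Mmrn1 and Mmrn2, at 161 ± 7.28 in Jun-Ctrl and 145 ± 15.3 in Jun-cKO-labelled libraries. Col26a1 fell from 4.46 to 2.11 CPM (log2 fold change -1.11, adjusted p = 0.00456), and Emilin3 had 3 counts in all and was not tested. The Col26a1 call ended with DESeq2 (0.0804), with GC correction (0.103) and on leaving out Jun-Ctrl replicate 1 (0.192), and this gene was not among those with 50 counts in 2 libraries. Of 25 listed genes with a C1q domain outside the family, 8 were tested. Of these 1 rose (12.5%) and 1 fell (12.5%), against 19.0% and 22.5% of all tested genes. The secreted C1qtnf1 fell from 4.17 to 1.84 CPM and Caprin2, an RNA-binding protein gene, rose from 2.77 to 5.78 CPM, and both calls ended with DESeq2 and without Jun-Ctrl replicate 1 or Jun-cKO-labelled replicate 2. The Caprin2 call also ended without Jun-Ctrl replicate 2 and with GC correction. Under that correction this list had 1 gene called higher and 1 called lower. As counted, C1qtnf6 and C1qtnf2 did not pass, at 0.06 and -0.24. C1qtnf6 was at 27.3 ± 2.62 and 28.2 ± 0.212 CPM per kilobase in the respective groups, below Mmrn2 and above Emilin1.

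**Figure D4:**
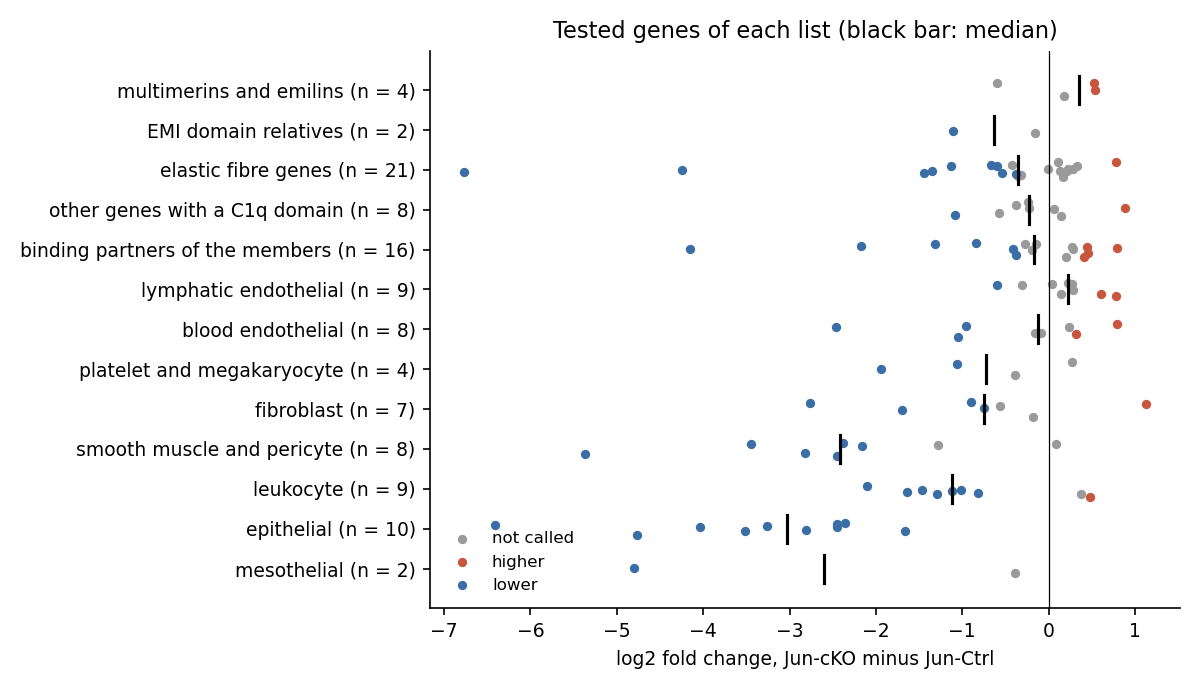
Log2 fold change (Jun-cKO minus Jun-Ctrl) of the tested genes in the multimerin and emilin family and in each gene list, colored by call at an adjusted p under 0.05, with the vertical scatter added for legibility and a black bar at each median. The 2 multimerins lie on the right, the lymphatic list spreads from Flt4 at -0.60 to Reln at 0.78 with 6 of 9 not called, and the epithelial and smooth muscle lists lie mostly far to the left.

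The genes most like each member over the 4 libraries were found by the distance between log2 CPM profiles centered on each gene's mean, over the 10037 tested genes whose mean count reached 50. For Mmrn1 they were Rab18, Socs6 and Strn3, at distances of 0.02, 0.03 and 0.03 log2 units. For Mmrn2 they were Chchd7, Sord and Ttc33 (0.03, 0.03 and 0.04), for Emilin1 Mrpl35, Atp6v1c1 and Rasa3 (0.01, 0.03 and 0.03), and for Emilin2 Ttyh2, Arfgap1 and Mospd3 (0.03, 0.05 and 0.06). Within the family, Mmrn1 and Mmrn2 were the closest pair, at 0.21, and Mmrn1 and Emilin2 the farthest, at 1.26. With 4 libraries and many genes, close profiles are frequent, and these names describe the 4 values only.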

How the data were processed

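The authors deposited raw read counts per gene for 24421 rows in 4 libraries, with a gene length. The submitters' processing notes name the build mm10 and, with no role given, edgeR 3.28.1, STAR 2.7.2a and featureCounts 1.6.4. RNA was amplified before library preparation and read at 79 bases, per the labels' protocols. For the counting, annotation and strand setting were not stated there.

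The main test was the quasi-likelihood test of edgeR 4.0.16 (R 4.3.3; TMM, filterByExpr, no block) on all 4 libraries, adjusted by Benjamini-Hochberg over 12656 genes and called at 0.05. Standard errors are the fold change over the root of F. Named list genes are the called ones with the smallest p, at most 4 a list, up to 2 uncalled ones of the highest level, and all tested partners. Further genes were named after their values were seen. The genes, lists and alternatives were chosen with earlier results of these data known. Alternatives included DESeq2 1.42.0 and limma-voom 3.58.1, and a loess correction (span 0.5) on the GC content of GENCODE M21 transcripts, matched for 96.3% of tested genes. Positions are from that annotation and promoters from RefSeq.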

Additional observations from a re-analysis of the deposited data

How the results depend on the processing

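Over 12 alternatives, Mmrn1, Mmrn2 and Emilin1 remained above 0 and Emilin2 below 0 on the log2 scale. Leaving out 1 library at a time gave log2 fold changes of 0.38 to 0.67 for Mmrn1, 0.40 to 0.66 for Mmrn2, 0.15 to 0.21 for Emilin1 and -0.81 to -0.48 for Emilin2, and the Mmrn1 call ended without Jun-Ctrl replicate 2 (adjusted p = 0.114 by edgeR). Emilin1 passed with the GC correction (0.65). Emilin2 passed with library totals (-0.65), with no filter (-0.59), with at least 50 counts in 2 libraries (-0.64) and with the replicate block (-0.59, adjusted p = 0.0473), and the cause was not tested. The titles share the mark replicate, and the libraries so marked were the shallower in each group. Deviations of same-marked libraries correlated at 0.07 across genes. A shared batch was not tested. The labels state no pairing, so the block is given as an alternative only. Among the 4 genes it changed no other call. With it 2521 genes were called higher and 2905 lower, against 2408 and 2843 without it. DESeq2 called 1564 higher and 2027 lower. Leaving out 1 library gave 1177 to 2214 higher and 1815 to 2656 lower, with the fewest of each without Jun-Ctrl replicate 1. Without Jun-Ctrl replicate 2 there were 1239 higher. With the GC correction Emid1 was at 0.34 (adjusted p = 0.0114) and Ltbp3 at 0.041, each on the other side of 0 from the value as counted, -0.16 and -0.37. The order of levels was the same in the 6 alternatives run for it. Counting error limits Emilin1 and Emilin2, whose smallest library counts were 72 and 29.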
